A study of Mus musculus with 4 samples.

Results

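Interferon-stimulated genes were followed in mouse hearts after transverse aortic constriction (TAC), an operation that narrows the aorta and makes the left ventricle pump against a raised pressure. The list held 33 genes, chosen for their roles as antiviral effectors, interferon-inducible GTPases and regulators of the response, and each gene was read from the probe set that carries its symbol alone. Of the 33 genes 28 had such a probe set among 19938 genes so measured. The probe sets of Isg15, Gbp2, Igtp and Irgm2 are shared with other genes and were not used, and Ifi44 had none. Mx1 and Mx2 lay below the level under which probe sets were treated as dim (4.71 on the log2 scale), so 26 genes entered the comparison, which covered 14914 genes.

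RNA came from hearts collected 1 week after TAC in both groups, 1 from a wild type mouse and 3 from mice lacking MAFbx, a muscle F-box protein encoded by Fbxo32 that selects targets for ubiquitin ligation. Each sample was hybridised to an Affymetrix Mouse Gene ST array, and values are log2 expression. Strain, age, sex and the way MAFbx was deleted are not given by the labels, and no unoperated heart was analysed here, so the effect of the operation itself was not measured. The labels number the hearts without saying outright that each is a separate animal, and p-values then measure only the spread between the 3 knockout samples.

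Interferons are secreted alarm signals. Type I interferons act through the receptor pair Ifnar1 and Ifnar2, whose kinases activate a complex of STAT proteins and Irf9 that binds the interferon-stimulated response element (ISRE) in promoters. Interferon gamma acts through Ifngr1 and Ifngr2 and the gamma-activated site (GAS), and favours GTPases that attack the vacuoles of intracellular pathogens. In the heart these genes are known from viral myocarditis and from the sensing of nucleic acids released by injured cells.

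The promoters of 6 genes are shown first, because they carry the element through which the family is known to respond. They are the 3 genes with the highest and the 3 with the lowest difference between knockout and wild type among those with an ISRE core upstream of the start site. Capitals mark the core, which is TTTC, any 2 bases and TTTC again, or on the other strand GAAA, any 2 bases and GAAA, and each sequence runs 5′ to 3′ on the strand of the gene (RefSeq windows, GRCm38.p6).
Rsad2: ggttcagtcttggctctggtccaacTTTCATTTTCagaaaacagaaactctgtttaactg
Gbp3: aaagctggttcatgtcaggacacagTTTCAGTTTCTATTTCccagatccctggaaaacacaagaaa
Ifit3: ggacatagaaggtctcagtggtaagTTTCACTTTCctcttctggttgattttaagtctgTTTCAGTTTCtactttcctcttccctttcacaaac
Irgm1: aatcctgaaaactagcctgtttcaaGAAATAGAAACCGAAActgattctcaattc
Oas1a: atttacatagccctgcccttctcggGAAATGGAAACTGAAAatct
Stat2: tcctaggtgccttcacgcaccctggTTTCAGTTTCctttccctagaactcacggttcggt
The Rsad2 stretch lies at chr12:26456538-26456597 on the minus strand and ends 86 bases before the start site. The Gbp3 stretch is chr3:142559974-142560039 on the plus strand, where 2 cores overlap and form 1 run. In Ifit3, at chr19:34583348-34583441 on the plus strand, the 2 cores are separate. Irgm1 (chr11:48871421-48871475, minus strand) and Oas1a (chr5:120907526-120907570, minus strand) each have 2 overlapping cores close to the start site. Stat2 (chr10:128270251-128270310, plus strand) has 1 core far upstream. Each stretch lies before the start site of its RefSeq window. Those of Rsad2, Irgm1 and Stat2 lie outside the annotated span of the gene, whereas those of Gbp3, Ifit3 and Oas1a lie within it or overlap it.

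RefSeq windows from 250 bases before to 50 bases after the start were found for 23 of the 33 genes. An ISRE core on either strand was present in 15 of these 23 genes (65.2%), against 1079 of 27025 genes (3.99%) and 1131 of 32851 windows (3.44%) of the same length. The GAS core, TTC, any 3 bases and GAA, which reads the same on both strands, was present in 7 of the 23 (30.4%), against 2582 of the 27025 genes (9.55%). Overlapping matches were counted separately, and in Bst2 a GAS core shares bases with an ISRE core. Isg15 had 3 overlapping ISRE cores, the largest number of the list, but its level was not measured alone. A match is a description of letters and not proof of a binding site.

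**Figure D1:**
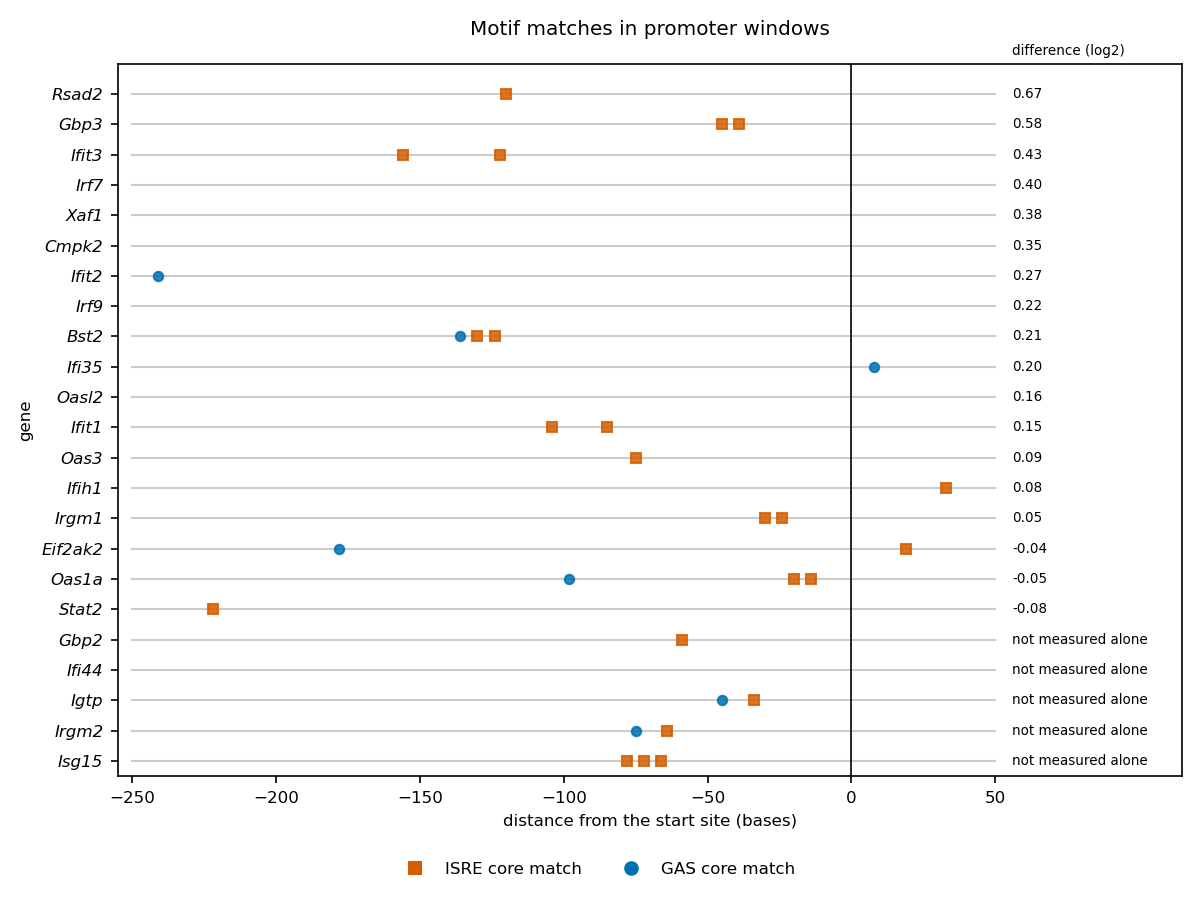
Positions of ISRE core (squares) and GAS core (circles) matches in the promoter windows of 23 genes, as distance in bases from the start site, with genes ordered by the difference between knockout mean and wild type (log2, right). Genes with ISRE matches stand at the top (Rsad2, 0.67) and at the bottom (Stat2, -0.08) of the measured genes with a window.

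Array checks come before the comparison. Fbxo32 read 7.54 on the wild type array and between 5.56 and 5.65 on the knockout arrays. Over the genes tested the medians of the arrays were 6.84 to 6.87. The labelled tissue was borne out by cardiomyocyte markers, with Myh6 between 13.12 and 13.28 and Tnnt2 between 13.35 and 13.43 on all 4 arrays. Xist, which silences 1 X chromosome in females, was low in wild type 1 (4.13) and knockout 3 (3.20) and high in knockouts 1 and 2 (9.18 and 9.52), and the Y-linked Eif2s3y showed the opposite split. Genotype is therefore partly confounded with this division, and knockout 3 is the one knockout array that shares the wild type pattern.

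Interferon-stimulated genes mostly read slightly higher in the knockout hearts. In 15 of 26 genes all 3 knockout arrays lay above the wild type array, as in 23.9% of all genes tested, and in 0 of 26 did all 3 lie below it, against 24.6% of all genes. The knockout mean was the higher in 22 genes and the lower in 4 (Zbp1, Stat2, Oas1a and Eif2ak2), where 50.4% of all genes had a higher mean. The median difference over the 26 genes was 0.215 on the log2 scale, and over all genes tested 0.00. A mean difference of at least 0.25 with every knockout array above was seen in 12 of the 26 genes and in 10.9% of all genes.

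No single gene of the list passed the test. With limma 0 of 26 had an adjusted p under 0.05, against 1 gene in all (0.00671%), and the smallest adjusted p in the list was 0.564, for Iigp1. Before adjustment 4 genes were higher in the knockout at a limma p under 0.05 (Iigp1, Gbp3, Ifit3 and Ifi27l2a), where 1.68% of all genes were, and 0 were lower, where 4.05% were. Without knockout 1 this count was 2, and without knockout 3 it was 1. With 1 array against 3 the smallest p of an exact permutation test is 0.25. Every difference rests on the same wild type array, whose own variation is unknown.

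**Figure D2:**
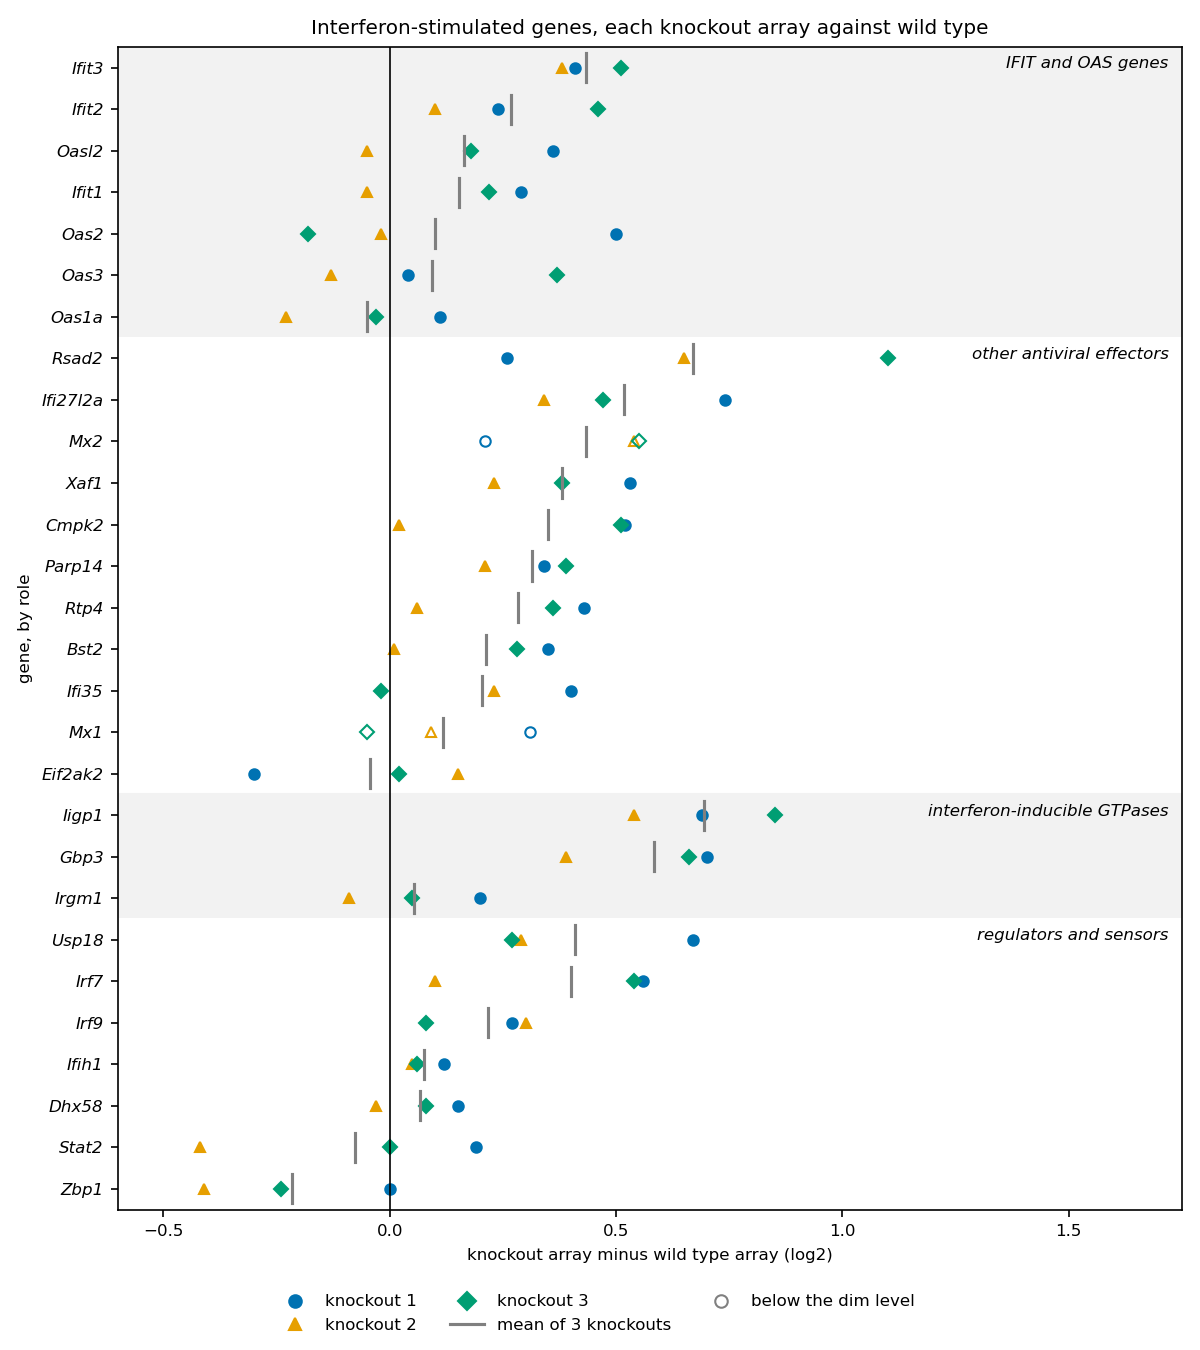
Difference between each knockout array and the wild type array (log2) for the 28 measured genes, grouped by role, with the mean of the 3 knockouts as a grey bar. Open symbols are Mx1 and Mx2, below the dim level. Knockout 2 (triangles) is the lowest of the knockout arrays in 20 of the 26 tested genes.

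The GTPases held the gene of smallest p. Iigp1, an immunity-related GTPase that ruptures parasite vacuoles, read 5.98 in wild type 1 and 6.67, 6.52 and 6.83 in knockouts 1, 2 and 3. All knockout values lay clear of the wild type value, by more than their own range. The difference was 0.69 (SE 0.19, 95% interval 0.24 to 1.15), a 1.62-fold higher level, with a limma adjusted p = 0.564. This difference was larger than those of 99.4% of all genes tested, and Iigp1 ranked 235th of 14914 by p.

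Gbp3, a guanylate-binding protein of the family that coats pathogen vacuoles, read 7.00 in wild type 1 and 7.70, 7.39 and 7.66 in the knockouts. The groups did not overlap, and knockout 2 was nearest to the wild type. The difference was 0.58 (SE 0.20, 95% interval 0.12 to 1.05), with a limma adjusted p = 0.713. Irgm1, a regulator of the other immunity-related GTPases, did not follow. It read 6.52 in wild type 1 and 6.72, 6.43 and 6.57 in the knockouts, a difference of 0.05 that lay inside the spread of the knockout arrays. The promoter stretches of Gbp3 and Irgm1 shown above each hold 2 overlapping ISRE cores.

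Among the IFIT genes, whose proteins bind foreign RNA and block its translation, Ifit3 was the most even. It read 5.98 in wild type 1 and 6.39, 6.36 and 6.49 in the knockouts, whose SD was 0.07. The difference of 0.43 (SE 0.17) had a limma adjusted p = 0.829. Ifit2 read 6.53 against 6.77, 6.63 and 6.99, again without overlap but with knockout 2 only 0.10 above the wild type. In Ifit1 knockout 2 lay below the wild type array, and its mean difference was 0.15. All 3 lie on chromosome 19 and have close paralogs, whose transcripts these probe sets may share in part.

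The OAS genes encode enzymes that make oligoadenylates to switch on RNase L, and none of the 4 had its knockout arrays all on one side of the wild type. Their mean differences ran from -0.05 for Oas1a to 0.16 for Oasl2. Oas2 read 6.31 in wild type 1 and 6.81, 6.29 and 6.13 in the knockouts, so that knockout 1 alone stood above. In Oas3 it was knockout 3, at 5.45, that stood apart from 5.08 in wild type 1 and 5.12 and 4.95 in knockouts 1 and 2. The IFIT and OAS genes together had a median difference of 0.15, with 2 of 7 genes above the wild type on every knockout array, a share of 28.6% near the 23.9% of all genes.

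Other antiviral effectors had the highest share of the 4 roles, with 7 of 9 above the wild type on every knockout array (23.9% of all genes) and a median difference of 0.31. Rsad2 encodes viperin, an enzyme that makes a chain-terminating nucleotide. It read 6.08 in wild type 1 and 6.34, 6.73 and 7.18 in knockouts 1, 2 and 3. The knockout values spread over more than the gap from the wild type to the lowest of them. The difference of 0.67 (SE 0.31) carried a 95% interval of -0.06 to 1.40 and a limma adjusted p = 0.880. Cmpk2, a mitochondrial nucleotide kinase encoded on chromosome 12 on the strand opposite to Rsad2, read 6.20 against 6.72, 6.22 and 6.71. Knockout 2, the middle knockout array for Rsad2, was level with the wild type for Cmpk2, with a gap of 0.02.

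Ifi27l2a, a small interferon-induced membrane protein, read 6.98 in wild type 1 and 7.72, 7.32 and 7.45 in the knockouts. The groups were apart, and the difference of 0.52 (SE 0.21) had a 95% interval of 0.02 to 1.01 and a limma adjusted p = 0.839. Xaf1, which opposes the apoptosis inhibitor XIAP, read 6.66 against 7.19, 6.89 and 7.04. Parp14, an ADP-ribosyltransferase, read 7.22 against 7.56, 7.43 and 7.61. Both genes were higher on every knockout array, by 0.38 and 0.31 in the mean. Rtp4, a chaperone of receptors that also binds foreign RNA, read 7.65 against 8.08, 7.71 and 8.01, where knockout 2 again came closest to the wild type.

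Among the remaining tested effectors separation was small or absent. Bst2, the tetherin that holds budding virus at the cell surface, lay above the wild type on every knockout array, but in knockout 2 by 0.01. Ifi35 had a mean difference of 0.20 with knockout 3 below the wild type by 0.02. Eif2ak2, the kinase PKR that halts translation on sensing double-stranded RNA, read 6.79 in wild type 1 and between 6.49 and 6.94 in the knockouts. Mx2, below the dim level, read 3.88 in wild type 1 and 4.09, 4.42 and 4.43 in the knockouts, above the wild type on every array by 0.43 in the mean. Mx1, of which most laboratory strains carry a defective copy, lay between 3.32 and 3.68 on all arrays, too dim to rank.

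**Figure D3:**
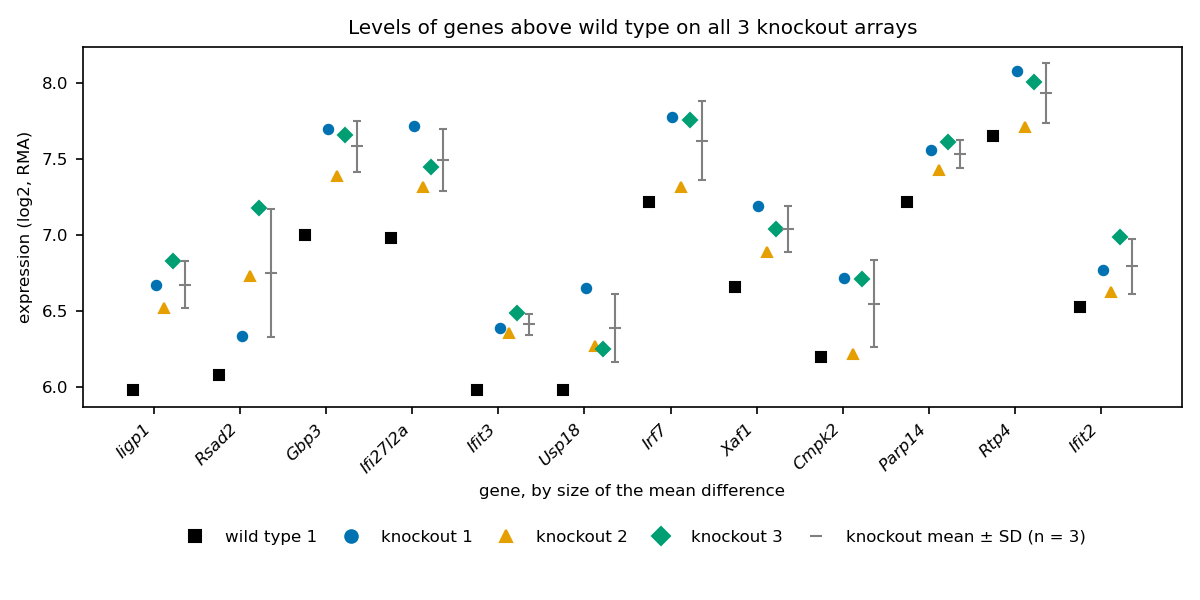
Expression (log2, RMA) on each array of the 12 genes that lay above wild type on all 3 knockout arrays by at least 0.25 in the mean, with the knockout mean ± SD (n = 3). The wild type square is the lowest point of every gene, by 0.02 for Cmpk2 and by 0.54 for Iigp1.

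Of the 7 regulators and sensors 4 lay above the wild type on every knockout array (23.9% of all genes), with a median difference of 0.08. Irf7, the factor that amplifies type I interferon production, read 7.22 in wild type 1 and 7.78, 7.32 and 7.76 in the knockouts, a difference of 0.40 (SE 0.23, limma adjusted p = 0.923). Usp18, which strips ISG15 from proteins and damps the type I receptor, read 5.98 against 6.65, 6.27 and 6.25, a difference of 0.41. Knockout 1 was the high array for Usp18, and knockouts 2 and 3 were close to each other. Irf9, the DNA-binding part of the STAT complex, had a mean difference of 0.22. Stat2, its partner, did not separate, with 7.56 in wild type 1 and 7.75, 7.14 and 7.56 in the knockouts.

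Of the cytosolic RNA sensors Ifih1 (MDA5) lay above the wild type on every knockout array but by at most 0.12, and Dhx58 (LGP2), a cofactor of such sensors, differed by 0.07 in the mean. Ddx58 (RIG-I), a sensor outside the list, read 7.23 in wild type 1 and 7.37, 7.33 and 7.62 in the knockouts, a difference of 0.21. Zbp1, a sensor of Z-form nucleic acids that can start necroptosis, had the lowest difference of the list, although without knockout 2 it stood at -0.12 and Eif2ak2 at -0.14. Wild type 1 and knockout 1 both read 6.12, and knockouts 2 and 3 read 5.71 and 5.88, a difference of -0.22 (SE 0.21, limma adjusted p = 0.964), which was -0.325 without knockout 1.

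The knockout arrays were not alike in these genes. Knockout 1 stood above the wild type in 24 of 26 genes (50.4% of all genes), with a median difference of 0.345. For knockout 3 it was 21 of 26 (47.1% of all genes) with a median of 0.275. For knockout 2 it was 17 of 26 (48.6% of all genes) with a median of 0.08. Knockout 2 was the lowest of the 3 knockout arrays in 20 of the 26 genes, as in 30.9% of all genes, knockout 1 in 2 (30% of all genes) and knockout 3 in 4 (36.7%). The highest of the 4 arrays was knockout 1 in 17 genes, as in 26% of all genes. The Xist-high arrays, knockouts 1 and 2, thus gave the highest and the lowest median, and knockout 3, with the Xist level of the wild type, lay between them. This order was not tested, and members of the list share their hearts.

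**Figure D4:**
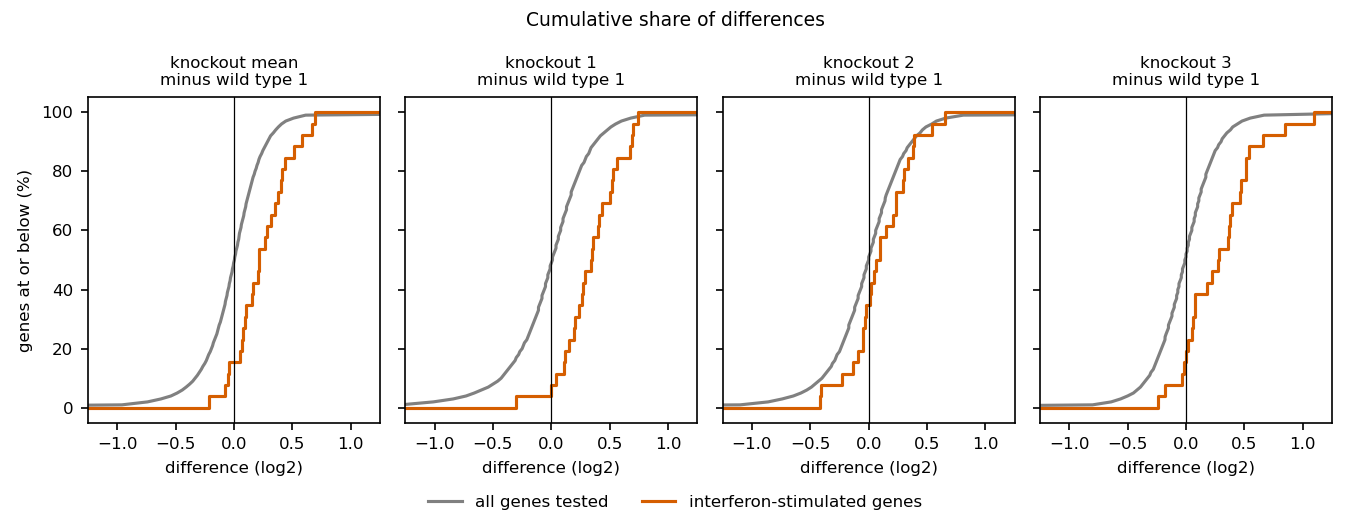
Cumulative share of genes (%) by difference from wild type 1 (log2) for the 26 interferon-stimulated genes and for all 14914 genes, for the knockout mean and for each knockout array. The curve of the list is shifted to higher values for knockout 1 (median 0.345) and knockout 3 (0.275), and less so for knockout 2 (0.08).

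Larger differences occurred both with and without an ISRE core. Of the 18 tested genes with a promoter window, the 11 with an ISRE core had a median difference of 0.09, and 5 of them lay above the wild type on every knockout array (23.9% of all genes). The 7 without one had a median of 0.27, and 5 of them lay above. For the GAS core the medians were 0.20 in the 5 genes with it and 0.22 in the 13 without, with 2 and 8 genes above. Rsad2 (0.67), Gbp3 (0.58) and Ifit3 (0.43), the genes with the largest differences of the 18, each had an ISRE core. Those without an ISRE core include Irf7, Xaf1 and Cmpk2. Iigp1, Ifi27l2a and Usp18 had no promoter window and could not be placed in either group. The difference between the medians was not tested. An element outside the window or with other letters would not be found by this search.

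Upstream of these genes, the readings of interferons and of their receptors differed in both directions. Interferon gamma (Ifng) read 5.04 in wild type 1 and 5.17, 5.12 and 5.14 in the knockouts, and interferon beta (Ifnb1) was below the dim level at 4.08 to 4.28. Of the interferon alpha genes, Ifna2 lay above the wild type on every knockout array, by 0.17 in the mean, Ifnab lay below on every one, by -0.22, and Ifna5 stood at -0.22 with knockout 3 above the wild type. Several of these readings were low. Ifna2 stood at 4.71 in wild type 1, at the dim level, and passed it through its knockout values. Ifng and Ifnab lay well under the array medians of 6.84 to 6.87. Sequences of the interferon alpha family are close, so their probe sets may share transcripts. Ifnar1 read 7.55 against 7.27, 7.17 and 7.42, and Ifnar2 8.83 against 8.42, 8.59 and 8.69. Both chains of the type I receptor were thus lower on every knockout array, by 0.26 in the mean, with limma adjusted p = 0.940 and 0.945. Ifngr1 had a mean difference of 0.20 with knockout 1 below the wild type, and Ifngr2 one of 0.09. Il10rb stood at 0.38 and Ifnlr1 at 0.14, both above the wild type on every knockout array. Of the 6 receptor genes 3 lay above on every knockout array (23.9% of all genes) and 2 below (24.6%), with a median difference of 0.12. Irf1, an early target of interferon gamma, read 6.73 against 6.83, 6.80 and 6.94.

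Across the other genes of the pathway, 7 lists with 72 tested genes, the pattern was balanced. In 23 genes every knockout array lay above the wild type (23.9% of all genes) and in 23 every one lay below (24.6%), and the median difference was 0.025. None passed the limma threshold, with 2 higher and 6 lower at an unadjusted limma p under 0.05, against 1.68% and 4.05% of all genes. After Ifi30 (below), the lowest differences were in nucleic acid sensing and in JAK-STAT control. Myd88, the adaptor of Toll-like receptors, read 8.28 in wild type 1 and 7.47, 7.43 and 7.60 in the knockouts (limma adjusted p = 0.441). Sting1, the adaptor of cytosolic DNA sensing, read 7.77 against 6.64, 6.90 and 7.39, Socs3, a feedback inhibitor of cytokine receptors, 7.33 against 6.59, 6.36 and 6.88, and the phosphatase gene Ptpn6 7.43 against 6.62, 6.45 and 7.00. Irf5, a factor of myeloid cells, stood at -0.65. Of 10 sensors and adaptors 6 lay below the wild type on every knockout array (24.6% of all genes), with a median of -0.21.

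Another 35 interferon-stimulated genes outside the list gave a smaller shift. Of these 13 lay above the wild type on every knockout array (23.9% of all genes tested) and 6 below (24.6%), and their median difference was 0.09. Sp100, a nuclear body protein, read 7.34 against 7.91, 7.69 and 7.83, and Oas1b, an OAS relative, 4.63 against 4.97, 5.13 and 5.17, with limma adjusted p = 0.816 for both. Ifi30, a lysosomal thiol reductase of antigen-presenting cells, went the other way, from 9.03 to 7.38, 7.88 and 8.40, a difference of -1.14 (limma adjusted p = 0.633). The wild type value of Oas1b, 4.63, lay below the dim level of 4.71, so its knockout values brought its mean past that level. Of the 3 genes for ISG15 conjugation Herc6 alone lay above the wild type on every knockout array, by 0.25 in the mean.

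Markers of cell types that make or answer interferon differed in several directions beside the list. Of 9 macrophage and monocyte markers 8 lay below the wild type on every knockout array (24.6% of all genes), with a median difference of -0.96. At an unadjusted limma p under 0.05, 6 of the 9 were lower (4.05% of all genes), led by Ccr2 (-2.02), Itgam (-1.59), Cd68 (-1.30) and Fcgr1 (-1.21). Their mean level was 8.48 in wild type 1 and 7.24, 7.42 and 7.80 in knockouts 1, 2 and 3. By this mean knockout 3, which shares the Xist pattern of the wild type, lay nearest to it, though still below. By the median difference, -1.15, -0.86 and -0.97 in knockouts 1, 2 and 3, it was knockout 2 that lay nearest. Cd163 was the exception, at 0.04. In bulk tissue fewer cells of a type and less RNA per cell cannot be told apart.

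Endothelial markers had a median difference of 0.24, with 4 of 8 above the wild type on every knockout array and 0 below. For these and the marker counts that follow, the shares over all genes are 23.9% above and 24.6% below. Their mean level was 8.56 in wild type 1 and between 8.67 and 8.97 in the knockouts, highest in knockout 3. T and NK cell markers had a median of 0.13 over 6 tested genes, with 3 above and 1 below, a mean level of 5.22 in wild type 1 and of 5.26 to 5.39 in the knockouts, and Cd3d, Ncr1, Klrb1c and Gzmb below the dim level. Of the plasmacytoid dendritic cell markers, which mark the main producers of type I interferon, 2 of 5 lay above and 2 below, with a mean level of 5.98 in wild type 1 and 5.87 to 6.01 in the knockouts. For neutrophils 2 of 7 markers were above the dim level, with a mean of 5.54 in wild type 1 and 4.85 to 5.41 in the knockouts. Of these Csf3r lay below the wild type on every knockout array, by -0.68 in the mean, and the other did not separate. Fibroblast markers averaged 9.66 in wild type 1 and between 9.18 and 10.09 in the knockouts, and cardiomyocyte markers 12.32 and between 12.35 and 12.54. The part of any of these in the interferon result was not tested.

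**Figure D5:**
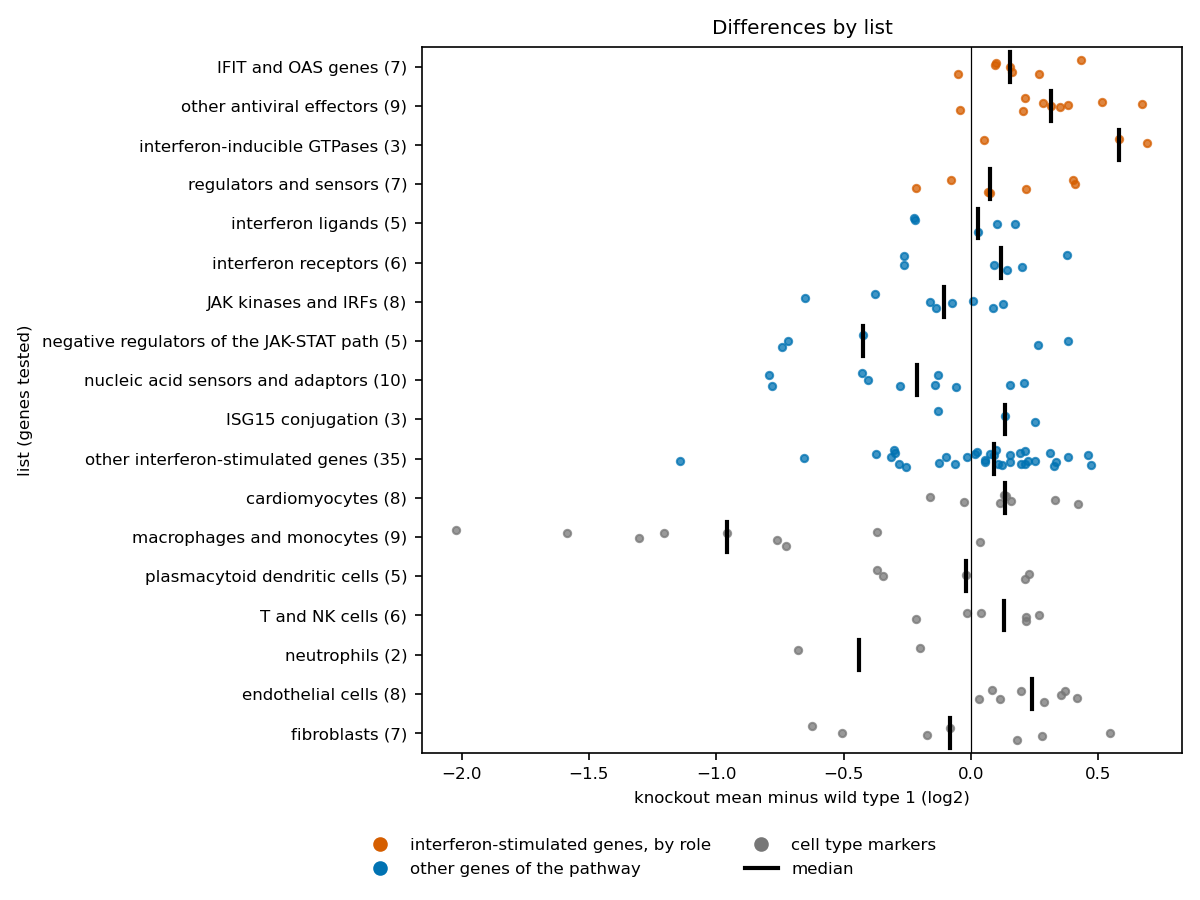
Difference between the knockout mean and wild type 1 (log2) for each tested gene, by list, with the number of tested genes in brackets and the median as a black bar. Medians of the 4 roles run from 0.08 for regulators and sensors to 0.58 for the 3 measured GTPases, while macrophage and monocyte markers lie at -0.96.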

How the data were processed

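The deposited values are log2 expression. The authors used RMA in Affymetrix Expression Console, per the submitters' processing notes. Versions and genome build: not given in the sources used here. The quantile step of RMA removes a shift shared by most genes, and differences at low signal can stay narrowed after its background correction.

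Of 35556 probe sets 21789 carried 1 gene symbol in the platform annotation, 1621 several and 12146 were unlisted. Where a gene had several probe sets the one of highest mean was kept, and means under the 25th percentile were left out. Knockout minus wild type was fitted on 14914 genes with limma 3.58.1 in R 4.3.3 (lmFit, eBayes, two-sided, Benjamini-Hochberg, 2 residual and 5.04 prior degrees of freedom) and tested on simulated data. The lone wild type array is assumed to vary like the knockouts, and 4 arrays limit precision.

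The naming rule takes every member, with all array values for those with separated groups and a mean difference of at least 0.25 or an unadjusted p under 0.05. It adds Ifng, Ifnb1, their receptors, Irf1 and 1 gene not reported here, and up to 4 genes per other list with an unadjusted p under 0.05. Array values of Irgm1, Oas2, Oas3, Stat2 and Zbp1 were added after they were seen. So were values of Ifna2, Ifna5, Ifnab, Ifnlr1, Il10rb, Ddx58, Herc6 and Cd163. Members, lists and tests were chosen with earlier results of these data known. Alternatives were other dim levels, renewed quantile normalization, centring, averaged probe sets, another variance model, another threshold and leaving out knockout arrays.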

Additional observations from a re-analysis of the deposited data

How the results depend on the processing

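The list kept its direction under every alternative run. The median difference ran from 0.1675 (without knockout 1) to 0.2925 (without knockout 2), and 15 to 17 genes lay above the wild type under other filters, normalization, centring and probe set rules. There 23 to 28 genes of the list were tested, and 23.2% to 29.3% of all genes lay above, the 17 and the 29.3% both under centring. No gene of the list passed the limma threshold at an adjusted p under 0.05 under any alternative, nor under 0.1 with all else unchanged. Leaving out 1 knockout array at a time, genes with all remaining arrays above numbered 16 to 20 (29.6% to 35.6% of all genes) and those below 0 to 3 (31.8% to 35.1% of all genes), the 3 being without knockout 1 (Oas1a, Oas2 and Zbp1). Genes higher at an unadjusted limma p under 0.05 numbered 1 to 4. Knockout 3 against wild type 1 alone, an alternative chosen after seeing the data and without a test, gave 21 genes above (47.1% of all genes), 4 below (50.7%) and a median of 0.275.

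Of 205 fold changes of single genes under alternatives 199 kept their sign and 6 changed it, all without 1 knockout array and none past a threshold. The ranges were -0.14 to 0.085 for Eif2ak2, -0.02 to 0.125 for Irgm1, -0.13 to 0.04 for Oas1a, -0.10 to 0.24 for Oas2, -0.045 to 0.205 for Oas3 and -0.21 to 0.095 for Stat2. No paired analysis was possible because there is 1 wild type array and the labels give no pairs. Sensitivity is limited by the number of arrays and, for Mx1 and Mx2, by dim signal.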

Other observations

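Some interferon-stimulated genes outside the list followed the split in Xist and not the pattern of the list. All genes named here were chosen after their values were seen, and the share of all genes with this split was not counted. The split was not particular to interferon-stimulated genes. The fibroblast marker Col1a1 read 11.58 and 12.11 in wild type 1 and knockout 3 against 10.10 and 10.66 in knockouts 1 and 2. Postn read 10.66 and 11.69 against 8.85 and 9.92. Cxcl10, a chemokine that draws activated T cells, was high in wild type 1 (7.05) and knockout 3 (7.55) and low in knockouts 1 and 2 (5.75 and 5.88). The membrane proteins Ifitm2 and Ifitm3, which block the entry of enveloped viruses, showed a smaller split. Ifitm2 read 10.45 and 10.44 against 9.98 and 10.04, and Ifitm3 read 11.05 and 11.01 against 10.63 and 10.57. Cxcl9, the close relative of Cxcl10, read 6.56 in wild type 1 and 6.85, 6.35 and 7.06 in knockouts 1, 2 and 3, with knockout 2 the lowest, as in 20 of the 26 genes of the list.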
